A study of Mus musculus with 7 samples.

Results

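The genes described here are 10 membrane transporters known from the barriers between blood, cerebrospinal fluid and brain: Slc6a13, Slc6a20a, Slc13a3, Slc22a6, Slc22a8, Slco1a4, Slc47a1, Abcb1a, Abcg2 and Abcc4. They were chosen by symbol, with no measured value in the rule, though earlier results of these data were known. All 10 were found among the 32285 genes of the count tables. They were read in single-nucleus RNA sequencing of the posterolateral cortical amygdala (plCoA), an olfactory area at the ventral surface of the mouse brain. Nuclei came from its anterior domain (aplCoA) and its posterior domain (pplCoA), with 3 replicates in each, and the comparison between domains asks how the cells of the plCoA are arranged along this axis. Every replicate was a pool of tissue from several male C57BL6J mice of 8 weeks, so that a replicate is a pool and not an animal. All were wild-type, and all were housed singly under sensory deprivation for the last day before tissue was taken. For aplCoA replicate 1 the counts of 2 libraries were added up. The sources do not say whether pools that carry the same number in the 2 domains came from the same mice.

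The leptomeninges wrap the brain in layers of fibroblasts, known as vascular and leptomeningeal cells (VLMCs), and in a sheet of arachnoid barrier cells (ABCs), which are sealed by tight junctions and separate cerebrospinal fluid from the vessels of the dura. Brain endothelium forms the other barrier, toward the blood. Carriers of the solute carrier (Slc and Slco) families take up or exchange amino acids, metabolites, drugs and organic ions, while pumps of the ATP-binding cassette family (Abcb1a, Abcg2, Abcc4) use ATP to move drugs, conjugates and nucleotides out of the cell. In what follows ABC stands for the arachnoid barrier cell only.

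Positions are those of the GRCm38 build. Slc22a8 (chromosome 19, 8591254 to 8611835) and Slc22a6 (chromosome 19, 8618039 to 8628299), which encode uptake carriers for organic anions, are neighbours on the plus strand with 6203 bases between them. Slc6a13 is on chromosome 6 (121300227 to 121337733, plus strand), as are Slco1a4 (141805440 to 141856199, minus strand) and Abcg2 (58584523 to 58695676, plus strand). Slc47a1 is on chromosome 11 (61343401 to 61378345, minus strand), and Abcb1a on chromosome 5 (8660077 to 8748575, plus strand). Slc6a20a (chromosome 9, 123634770 to 123678885), Slc13a3 (chromosome 2, 165405028 to 165473230) and Abcc4 (chromosome 14, 118482692 to 118706219) are on the minus strand. Counts included introns, so reads from anywhere between these positions could enter a count. Slc6a20a and Slc13a3 overlap other genes on the opposite strand, and the other 8 overlap no other gene of the count tables. Whether counting used strand is not given in the sources used here.

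The 250 bases before the RefSeq start of Slc22a8 and of Slc22a6 are shown because these neighbours were the carriers most alike in pattern among the 10 genes. Capitals mark GTTAAT, a motif of the HNF1 factors known from kidney and liver, where organic anion carriers are also made. Both sequences are from GRCm38.p6, plus strand, chr19:8592932-8593181 for Slc22a8 and chr19:8617746-8617995 for Slc22a6.
Slc22a8: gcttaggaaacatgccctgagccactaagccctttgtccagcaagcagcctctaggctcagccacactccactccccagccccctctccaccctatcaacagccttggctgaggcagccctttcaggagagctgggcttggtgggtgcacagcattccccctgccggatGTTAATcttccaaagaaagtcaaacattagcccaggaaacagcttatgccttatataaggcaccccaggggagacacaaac
Slc22a6: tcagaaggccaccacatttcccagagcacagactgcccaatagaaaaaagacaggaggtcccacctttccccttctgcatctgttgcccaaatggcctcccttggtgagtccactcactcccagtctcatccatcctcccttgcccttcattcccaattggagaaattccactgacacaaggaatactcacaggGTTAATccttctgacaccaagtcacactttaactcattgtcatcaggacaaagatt

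The motif stood at position -81 in Slc22a8 and at position -56 in Slc22a6, counted from the start. GTTAAT or its reverse ATTAAC was found in 7.10% of 32851 promoters of 300 bases (250 before and 50 after the start). Of the transporters, 9 matched a RefSeq promoter, with 14 windows in all, and Slc47a1 had none. The motif was in 4 of the 14 windows, those of Slc22a6, Slc22a8, Slc6a13 and Slc6a20a. The forkhead motif TGTTTAC or its reverse GTAAACA was in 3.65% of all promoters and in 1 of the 14 windows, of Abcb1a. A match says only that these letters are in the window.

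The 7 libraries held 50812605 to 129624583 UMIs (unique molecular identifiers, counted once per captured molecule). Of 52201 barcodes with at least 1000 genes, 46434 were kept after limits on UMIs, mitochondrial and ribosomal shares and doublets. Pairs of libraries shared 4 to 31 barcodes among the kept nuclei, at most 0.385% of the smaller library. Nuclei were clustered without the 10 transporters and named from markers, which gave 1856 VLMC-like and 1046 ABC-like nuclei. Levels are given as CPM, which divides the UMIs of each gene by all UMIs of the class on a common scale, with the mean and SD over replicates, and values are compared within a gene across classes.

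The VLMC-like nuclei formed 2 clusters, named here by their leading genes. The Bmp6-led cluster (1106 nuclei) had the fibroblast collagen Col1a2 at 392 CPM, Dcn at 312 CPM and Lum at 36.5 CPM, and the Ptgds-led cluster (750 nuclei) had these genes at 155, 148 and 5.91 CPM. The ABC-like nuclei were also in 2 clusters. The Fn1-led cluster (158 nuclei) had the adhesion gene Cdh1 at 759 CPM, Dpp4 at 1389 CPM and the tight junction gene Cldn11 at 679 CPM, with Col1a2 at 35.4 CPM. The larger Adamtsl3-led cluster (888 nuclei) was less clearly of this type: Cdh1 was at 402 CPM, Dpp4 at 81.0 CPM and Cldn11 at 75.7 CPM, but Col1a2 was at 156 CPM, as in the Ptgds-led cluster, and its marker score was 0.43 for ABCs against 0.39 for VLMCs, so that another type of arachnoid fibroblast cannot be told apart from ABCs here. Its first gene was Slc47a1, and it is called by the next. The Ptgds-led cluster scored 0.58 for VLMCs against 0.47 for ABCs, and 0.47 against 0.45 with log-normalized clustering. The ABC markers Krt18 and Wnt6 were at 0 and 0.80 CPM there. Over all 7 ABC markers, however, its score of 0.47 was above the 0.43 of the Adamtsl3-led cluster, so these 2 markers do not set it apart from ABCs. The junction genes Tjp1 and Ocln, at 3254 and 269 CPM in the Fn1-led cluster, were at 313 and 24.3 CPM in the Adamtsl3-led cluster. Markers of choroid plexus and ependyma were at or near 0 in the ABC-like nuclei (Ttr 5.22 CPM, Folr1 and Foxj1 0 CPM).

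The 10 transporters divided between the 2 meningeal classes without overlap. Over the 6 replicates, 4 were higher in ABC-like than in VLMC-like nuclei (Slc47a1, Abcb1a, Abcg2 and Abcc4) and 6 were lower (Slc6a13, Slc6a20a, Slc13a3, Slc22a6, Slc22a8 and Slco1a4), in each case with all ABC-like values on one side of all VLMC-like values. Among 6392 genes seen in at least 10% of nuclei, 15.2% were higher and 14.9% lower without overlap. The 2 classes are clusters of the same nuclei, so the division is a description and carries no test. The median log2 ratio of all these genes was -0.04. The Adamtsl3-led cluster made up 888 of the 1046 ABC-like nuclei, and the Fn1-led cluster did not follow the division for Slc47a1, which had no UMI there. Abcc4 did not follow it there either. Its 24.15 to 59.5 CPM in Fn1-led nuclei of aplCoA overlapped the 8.13 to 24.39 CPM of VLMC-like nuclei. Setting the classes nucleus by nucleus from marker UMIs (320 ABC-like, 363 VLMC-like) left the 4 higher and 4 of the 6 lower, with Slc13a3 and Slc22a8 then overlapping.

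**Figure D1:**
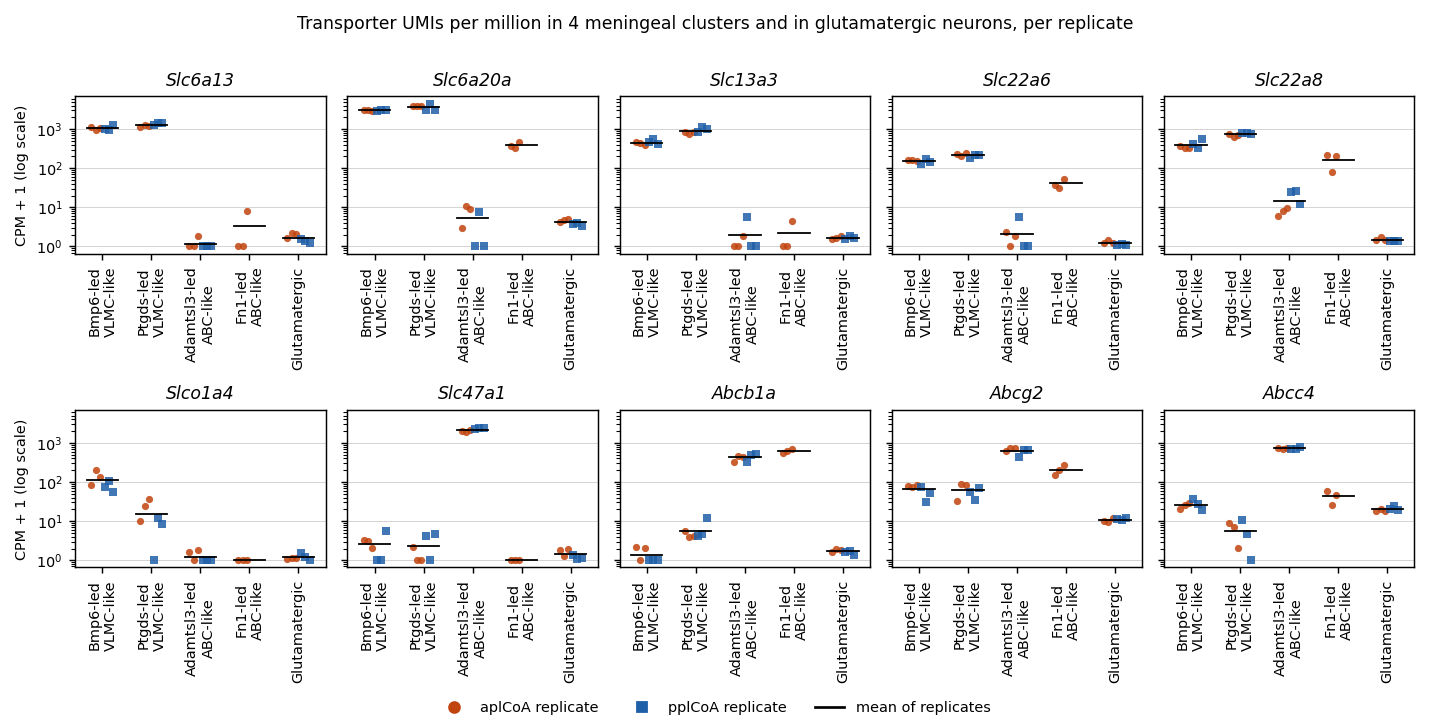
Level (CPM + 1, log scale) of each transporter in the 2 VLMC-like clusters, the 2 ABC-like clusters and glutamatergic neurons; circles are aplCoA replicates, squares pplCoA replicates, and lines the means of the replicates shown. The pplCoA replicates had fewer than 10 Fn1-led nuclei each and are not drawn there; Slc47a1 sits near 2173 CPM in the Adamtsl3-led cluster and at 0 in the Fn1-led cluster.

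Of the carriers on the VLMC side, Slc6a20a, which carries proline and other imino acids, was at 3448, 3409 and 3386 CPM in the VLMC-like nuclei of aplCoA replicates 1 to 3 and at 2957, 3812 and 3088 CPM in those of pplCoA. In ABC-like nuclei it was at 38.3, 100.5 and 93.9 CPM in aplCoA and at 0, 48.8 and 5.41 CPM in pplCoA. The lowest VLMC-like value was thus far above the highest ABC-like value, and the ABC-like values themselves spread over the whole range from 0 to 100.5 CPM. The mean log2 ratio of ABC to VLMC, computed on CPM + 1, was -7.23 ± 2.52 (SD, n = 6).

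Slc6a13, a carrier of GABA and taurine, was at 1116, 1076 and 1162 CPM in VLMC-like nuclei of aplCoA and at 1135, 1165 and 1335 CPM in those of pplCoA. Of the 1046 ABC-like nuclei, 0.287% had a UMI of Slc6a13, with a mean of 0.33 CPM over replicates, and 93.8% of VLMC-like nuclei had one. Slc13a3, a carrier of dicarboxylates such as succinate, showed the same split, at 669.7 ± 101 CPM (SD, n = 6) in VLMC-like and 1.01 ± 1.90 CPM (SD, n = 6) in ABC-like nuclei. Its VLMC-like values ran from 554 to 838 CPM and its ABC-like values from 0 to 4.75 CPM.

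The organic anion carriers were on the same side. Slc22a8 was at 557 ± 67.4 CPM (SD, n = 6) in VLMC-like nuclei and at 39.1 ± 30.1 CPM (SD, n = 6) in ABC-like nuclei, and Slc22a6 at 183 ± 17.1 and 7.47 ± 5.64 CPM (SD, n = 6). Slc22a8 had the smallest gap of the 6, with a log2 ratio of -4.04 ± 0.95 (SD, n = 6). Of VLMC-like nuclei with a UMI of Slc22a6, 81.0% also had one of Slc22a8, against 64.3% of those without. Nuclei with more UMIs in all have more of both, which this count does not take out.

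Slco1a4, an uptake carrier for organic anions and steroid conjugates, is known from brain endothelium, and 16.8% of VLMC-like nuclei had a UMI of it. Its VLMC-like level was 45.6, 131 and 83.8 CPM in aplCoA and 41.6, 58.0 and 28.5 CPM in pplCoA, and in ABC-like nuclei it was at most 0.66 CPM. Its replicates varied more than those of the other 5, with an SD of 37.4 on a mean of 64.7 CPM.

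On the ABC side, Slc47a1, an exchanger that moves organic cations out of cells against protons, was at 1766, 1382 and 1696 CPM in ABC-like nuclei of aplCoA and at 2245, 1979 and 2385 CPM in those of pplCoA. In VLMC-like nuclei it was between 0 and 4.07 CPM, and 9 of 1856 nuclei had a UMI. The log2 ratio was 9.74 ± 0.74 (SD, n = 6). The 3 ATP-binding cassette pumps were all on this side over the whole class. Abcb1a, which encodes a P-glycoprotein, was at 448 ± 92.2 CPM in ABC-like and 2.59 ± 1.81 CPM in VLMC-like nuclei (SD, n = 6), a log2 ratio of 7.06 ± 0.61.

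Abcc4, a pump of organic anions and cyclic nucleotides, was at 644 ± 94.1 CPM in ABC-like and 15.4 ± 5.34 CPM in VLMC-like nuclei (SD, n = 6), a log2 ratio of 5.35 ± 0.59. Abcg2, the breast cancer resistance protein, had the smallest gap of the 4, at 577 ± 82.8 against 63.1 ± 19.1 CPM (SD, n = 6) and a log2 ratio of 3.23 ± 0.54. Of VLMC-like nuclei, 19.1% had a UMI of Abcg2, 4.80% one of Abcc4 and 0.754% one of Abcb1a.

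Shares of nuclei with a UMI depend on depth, so nuclei were thinned to 1500 UMIs each, which left out 10 VLMC-like, 1 ABC-like and 10 glutamatergic nuclei. They were compared with glutamatergic neurons, a class that should lack most of these genes and had a median of 12214 UMIs against 3319 in VLMC-like and 3927.5 in ABC-like nuclei. In VLMC-like nuclei 7 transporters were above the neurons in every replicate: Slc6a20a in 92.4 ± 1.26% of nuclei (SD, n = 6), Slc6a13 in 77.8 ± 3.18%, Slc13a3 in 53.4 ± 2.86%, Slc22a8 in 50.01 ± 4.04%, Slc22a6 in 21.1 ± 1.25%, Slco1a4 in 8.61 ± 3.97% and Abcg2 in 8.34 ± 2.35%. The neurons had between 0.0251% for Slco1a4 and 1.40% for Abcg2 in these 7. The share of all genes above the neurons in this way was not counted. This count and that of the ABC-like nuclei below therefore describe these transporters only.

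In ABC-like nuclei 5 were above the neurons in every replicate: Slc47a1 in 78.9 ± 11.8% (SD, n = 6), Abcg2 in 52.4 ± 4.88%, Abcc4 in 49.8 ± 9.02%, Abcb1a in 43.7 ± 7.40% and Slc22a8 in 4.65 ± 3.58%. Abcc4 in VLMC-like nuclei (2.22 ± 0.633%) was not above its share in neurons (2.66 ± 0.415%). Mature oligodendrocytes had Abcc4 in 0.105% of nuclei, and how much of its share in neurons was free RNA was not tested. In the Bmp6-led and Ptgds-led clusters Abcc4 was at 25.4 ± 6.34 and 4.74 ± 3.88 CPM (SD, n = 6), without overlap. Slc47a1 in VLMC-like nuclei overlapped its share in neurons, at 0.237 ± 0.293% against 0.0655 ± 0.0578% (SD, n = 6). Abcb1a overlapped over the whole class, while in the Ptgds-led cluster its share ran from 0.266% to 1.74%, above the 0.0580% to 0.152% of the neurons. The same 7 and 5 were found at 1000 and at 3000 UMIs. Without pplCoA replicate 1, Abcb1a joined the 7 and Slc6a20a the 5. Slc22a6 joined the 5 without pplCoA replicate 3, and with no doublet removal both Slc6a20a and Slc22a6 did.

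**Figure D2:**
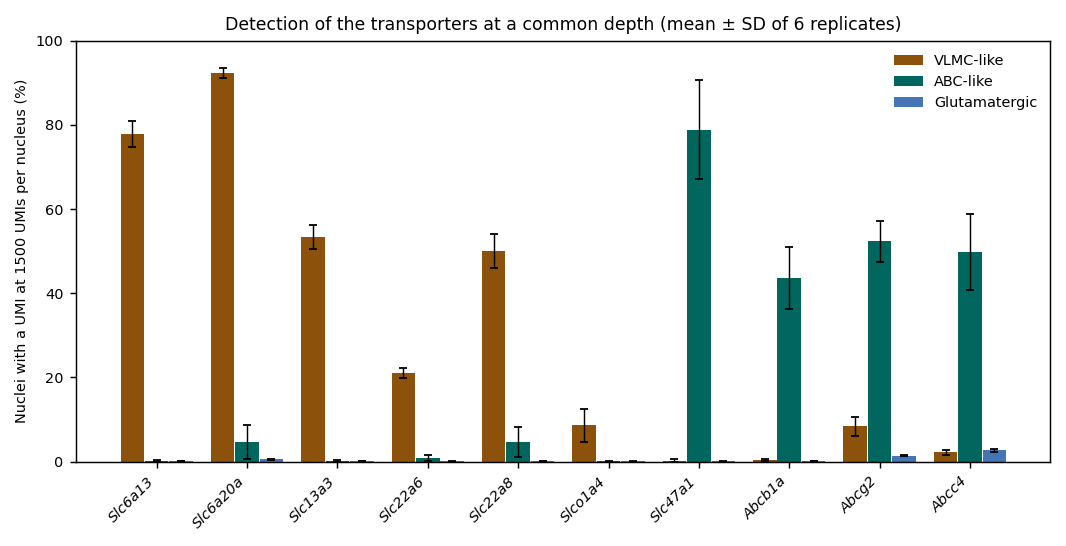
Share of nuclei with at least 1 UMI of each transporter after thinning to 1500 UMIs per nucleus (%), as mean ± SD of 6 replicates, in VLMC-like, ABC-like and glutamatergic nuclei. Slc6a20a and Slc6a13 reach 92.4% and 77.8% in VLMC-like nuclei, Slc47a1 reaches 78.9% in ABC-like nuclei, and the neurons reach at most 2.66%, for Abcc4.

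Within each class the transporters were not evenly spread over the clusters. The Ptgds-led cluster had more Slc13a3 than the Bmp6-led cluster (890.5 ± 139 against 452 ± 55.6 CPM), more Slc22a8 (735 ± 63.5 against 390.5 ± 90.7 CPM) and more Slc22a6 (216 ± 19.5 against 151 ± 15.3 CPM; all SD, n = 6), without overlap of the replicates. Slco1a4 went the other way, at 14.5 ± 12.96 CPM in the Ptgds-led and 109.5 ± 54.2 CPM in the Bmp6-led cluster (SD, n = 6), also without overlap. Slc6a13 and Slc6a20a were each higher in the Ptgds-led cluster in 5 of 6 replicates, with overlapping values. Of the 7 transporters seen in at least 10% of nuclei of either cluster, 3 were therefore higher and 1 lower without overlap, where 6.57% and 11.7% of 6367 genes were. These clusters are named by leading genes, among them Slc6a13, Slc6a20a, Slc13a3 and Slc22a8 themselves, and the differences carry no test.

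The 2 ABC-like clusters differed more. In the 3 aplCoA replicates, which alone had enough Fn1-led nuclei, Slc47a1 was at 1957, 1938 and 2079 CPM in the Adamtsl3-led cluster and at 0 in all 3 in the Fn1-led cluster. None of the 158 Fn1-led nuclei had a UMI of Slc47a1, 0 of 158, which allows a share of nuclei with a UMI of up to 1.90%, and 98.3% of the Adamtsl3-led nuclei had one. Abcc4 was at 719 ± 3.20 CPM in the Adamtsl3-led and 43.3 ± 17.9 CPM in the Fn1-led cluster, and Abcg2 at 690.2 ± 55.4 and 207 ± 63.1 CPM (SD, n = 3). The Fn1-led cluster, in turn, had Abcb1a at 629.7 ± 74.2 against 402 ± 75.3 CPM, and it held carriers of the VLMC side: Slc6a20a at 392 ± 75.2 against 6.57 ± 4.10 CPM, Slc22a8 at 164 ± 74.5 against 7.10 ± 1.86 CPM and Slc22a6 at 39.8 ± 12.1 against 0.70 ± 0.65 CPM (SD, n = 3).

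Each of these 7 differences was without overlap, 4 higher and 3 lower in the Fn1-led cluster, where 17.1% of 6291 genes were higher and 17.9% lower (35.0% in all). Slc6a13 and Slc13a3, the other carriers of the VLMC side, stayed at 3.08 and 1.54 CPM over all Fn1-led nuclei, so that 2 of 158 nuclei had a UMI of Slc6a13 but 82 had one of Slc6a20a. Counted over the ABC-like class by nucleus, 2.06% of nuclei with a UMI of Slc47a1 had one of Slc6a20a, against 47.4% of those without. For Abcc4 the order was turned, with 79.8% and 13.9%, while Abcb1a was found in 67.9% and 80.3%. All 873 nuclei with a UMI of Slc47a1 were among the 888 Adamtsl3-led nuclei, so these shares mostly restate the difference between clusters. Within the Adamtsl3-led cluster, where few nuclei lacked Slc47a1, the shares were 2.06% and 0% for Slc6a20a. There they were 79.8% and 40.0% for Abcc4, and 67.9% and 53.3% for Abcb1a. Fn1-led nuclei numbered 43, 32 and 73 in the aplCoA replicates and 0, 8 and 2 in pplCoA, which bears on every difference between domains within the ABC-like class.

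How much of each transporter's RNA the meninges held differed between genes. VLMC-like and ABC-like nuclei were 6.25% of all nuclei and held 96.97% of the UMIs of Slc47a1, 96.0% of those of Slc6a13, 94.5% of Slc22a8, 94.0% of Slc6a20a, 93.3% of Slc22a6, 84.8% of Abcb1a and 82.4% of Slc13a3. For Slco1a4 the share was 65.3%, with 73.5% in aplCoA and 38.5% in pplCoA. All these shares are over kept nuclei only. They leave out the 53 endothelial-marked nuclei removed as doublets, where Slco1a4 was at 2390.2 CPM and Abcb1a at 829 CPM. Shares with those nuclei included were not computed, so the meningeal part of these 2 genes is uncertain to that extent. Abcg2 and Abcc4 were the exceptions: 35.2% and 26.7% of their UMIs were meningeal.

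**Figure D3:**
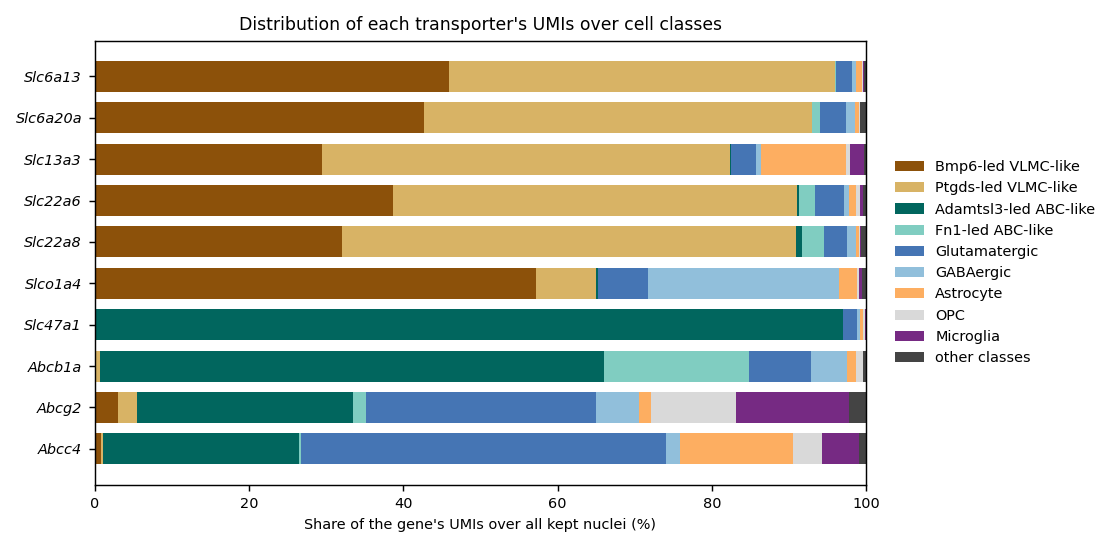
Share (%) of each transporter's UMIs over all kept nuclei that falls in each cell class, with the 2 VLMC-like and 2 ABC-like clusters drawn apart. Slc47a1 is almost wholly in the Adamtsl3-led cluster (96.9%), Slc6a13 and Slc6a20a are in both VLMC-like clusters, and Abcc4 has its largest share, 47.3%, in glutamatergic neurons.

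Outside the meninges, glutamatergic neurons, the most numerous class, held 47.3% of Abcc4 and 29.8% of Abcg2 UMIs, at levels of 19.1 ± 2.45 and 9.85 ± 1.07 CPM (SD, n = 6). Abcg2 was higher in microglia, the resident immune cells, at 130.2 ± 13.1 CPM, and in oligodendrocyte precursors at 61.9 ± 4.05 CPM (SD, n = 6), the latter close to its VLMC-like level. Abcc4 was at 44.6 ± 6.98 CPM in astrocytes and 53.6 ± 4.74 CPM in microglia (SD, n = 6). Astrocytes also had Slc13a3, at 17.4 ± 2.19 CPM (SD, n = 6), above the 0.69 ± 0.14 CPM of glutamatergic neurons in every replicate, and these nuclei gave 11.02% of its UMIs. Of the UMIs of Slco1a4 in kept nuclei, 24.8% were in the nuclei of GABAergic clusters, with 20.2% in aplCoA and 39.6% in pplCoA. However, these 202 UMIs came from 27 of 5088 nuclei. Their level ran from 1.03 to 11.1 CPM over the replicates. A GABAergic cluster of 882 nuclei had a marker score of 0.93 for GABAergic neurons and, as the next highest, 0.55 for endothelium. Whether the 27 nuclei also held endothelial RNA, or were endothelial, was not tested, so these UMIs cannot be assigned to GABAergic neurons. Slc22a6, Slc22a8 and Slc6a13 had no UMI in 262 macrophages, which at this depth allows up to 3.98 CPM.

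Vessel cells were few, and many were lost as doublets: 53 of 83 nuclei with UMIs of at least 3 of 5 endothelial markers (63.9%), 60 of 97 nuclei in the mural cluster and 105 of 256 in the cluster named endothelial (41.0%), against 8.16% of all nuclei. They are therefore given before doublet removal, with 95% Poisson intervals that cover counting error only. In the endothelial-marked nuclei Slco1a4 was at 1378 CPM (1291 to 1469), Abcb1a at 469 CPM (419 to 523), Abcc4 at 349 CPM (306 to 397) and Abcg2 at 346 CPM (304 to 394). Slc22a8 was at 70.7 CPM (52.2 to 93.8), and Slc22a6 had no UMI, which allows up to 4.42 CPM. By their choice these nuclei held endothelial markers: Flt1 was at 1739 CPM and the junction gene Cldn5 at 340 CPM, where Cldn5 was at 0.26 CPM in VLMC-like and 0.23 CPM in ABC-like nuclei.

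Thus Abcb1a, Abcg2 and Abcc4 were shared by endothelial-marked and ABC-like nuclei, Abcc4 mainly with the Adamtsl3-led cluster. Slco1a4 was shared by endothelial-marked and VLMC-like nuclei, and Slc47a1 had 9 UMIs in the endothelial-marked nuclei, all in 1 nucleus. In the 97 mural nuclei, which surround vessels, Slc6a20a was at 1791 CPM (1639 to 1953), Slc22a8 at 238 CPM (185 to 301) and Slc6a13 at 80.5 CPM (51.0 to 121), while Slc22a6, Slc47a1 and Abcb1a had no UMI. A mural cluster of 36 nuclei, found by clustering again after doublet removal, had Slc6a20a at 1701 CPM (1456 to 1976). The 30 endothelial-marked nuclei left after doublet removal had a median of 11293.5 UMIs, close to that of neurons, and Slco1a4 at 562 CPM (489 to 643). The 53 that were removed had a median of 3506 UMIs and Slco1a4 at 2390.2 CPM (2219 to 2571).

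**Figure D4:**
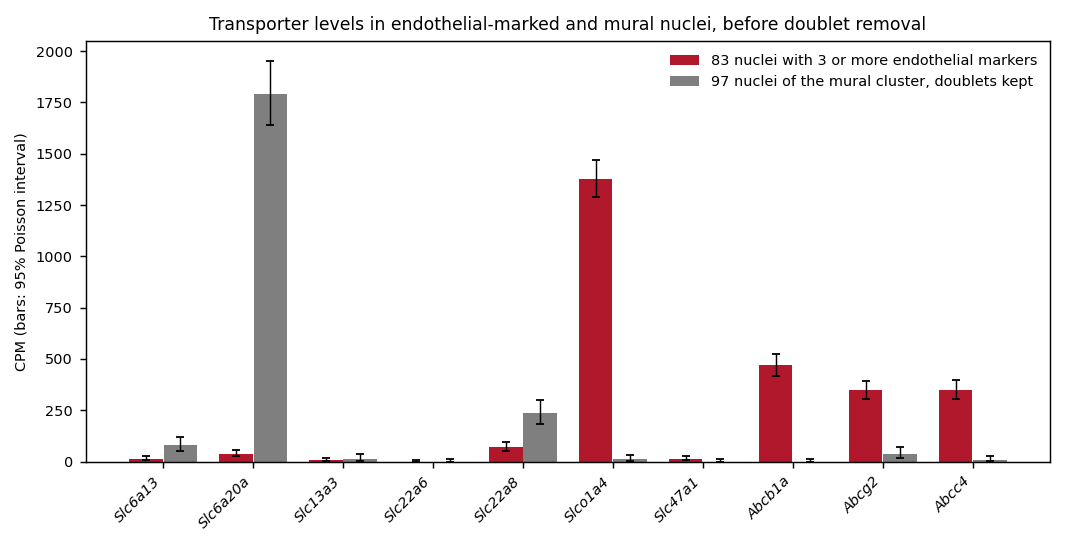
Levels (CPM, with 95% Poisson intervals for counting error) of the transporters in 83 endothelial-marked nuclei and in 97 nuclei of the mural cluster, both before doublet removal. The endothelial bar of Slco1a4 reaches 1378 CPM and the mural bar of Slc6a20a 1791 CPM, and neither interval meets that of the other group.

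Likeness of pattern was measured as Pearson's r of log2(CPM + 1) over 58 sums of a class and a replicate, which share libraries and depth, and is given as a description. Among the transporters Slc47a1 and Abcb1a were most alike (r = 0.96), then Slc22a6 and Slc22a8 (r = 0.94). Among 7967 other genes that reached 50 CPM in a class, the one nearest to Slc47a1 was its relative Slc47a2 (r = 0.98), followed by Vsx1 and Gm5860 (r = 0.97 each). Nearest to Slc6a13 were Slc22a2, an organic cation carrier, the matrix gene Fmod and the betaine carrier Slc6a12 (r = 0.97 each). Aldh1a2, an enzyme of retinoic acid synthesis, was nearest to Slc6a20a (r = 0.96) and to Slc22a6 (r = 0.95). Ccn2 (r = 0.95) and Gm6209 (r = 0.94) followed for Slc6a20a, and Gm6209 and Plscr2 (r = 0.95 each) for Slc22a6.

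Slc22a8 was nearest to Gm12830, Gm15866 and the transcription factor Osr1 (r = 0.97 each), and Slc13a3 to Hs3st3b1 (r = 0.93), Glipr2 (r = 0.90) and Nat8f7 (r = 0.89). Slco1a4 was nearest to the endothelial receptor gene Flt1 (r = 0.93), then Adgrf5 (r = 0.93) and Col4a6 (r = 0.91). No endothelial or mural sum was among the 58, and Flt1 was at 197 CPM in VLMC-like nuclei, so this likeness does not describe endothelium. Ahnak2 and Vsx1 were among the genes nearest to Abcb1a (r = 0.95 each). For the widely found pumps no gene came as near: Abcg2 had Fkbp5 (r = 0.86), Slc26a2 (r = 0.85) and Dgcr2 (r = 0.84), and Abcc4 had Mid1 (r = 0.86), Exoc4 (r = 0.85) and Abi1 (r = 0.84).

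Close relatives of Abcb1a, Slc6a20a and Slco1a4 were counted too. Abcb1b, 49571 bases from Abcb1a and near-identical to it in places, was at 6.59 CPM in ABC-like and 0.43 CPM in VLMC-like nuclei but at 13.2 CPM over all nuclei, where it was lower in aplCoA than in pplCoA. Slc6a20b, 2204 bases from Slc6a20a, was at 147 CPM in VLMC-like and 20.7 CPM in ABC-like nuclei. Slco1a5 and Slco1a6 were at 5.68 and 1.99 CPM in VLMC-like nuclei. How reads from such copies were split in counting is not given in the sources used here, so the values of Abcb1a, Slc6a20a and Slco1a4 are uncertain to that extent.

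Between the domains, all 10 transporters were higher in aplCoA when UMIs were summed over all nuclei of a replicate. Of these, 7 passed edgeR's quasi-likelihood test at an adjusted p under 0.05, where 18.7% of 16290 genes passed in either direction with 9.39% higher and 9.31% lower in aplCoA. Slc47a1 was at 25.8, 21.7 and 40.4 CPM in aplCoA and at 6.35, 7.88 and 11.2 CPM in pplCoA, a log2 difference of 1.72 ± 0.26 (SE; adjusted p = 0.00556 from edgeR). Abcb1a was at 5.79, 8.69 and 12.3 CPM and at 1.60, 2.77 and 3.08 CPM (log2 difference 1.78 ± 0.31, SE; adjusted p = 0.00813 from edgeR). In both genes every aplCoA replicate was above every pplCoA replicate, as in 31.7% of all genes, and both passed in all 6 fits that left out a replicate. Quality measures also differed by domain. The median mitochondrial share of UMIs was 0.0239% to 0.0495% in aplCoA libraries and 0.00981% to 0.0165% in pplCoA libraries. The ribosomal share was 0.276% to 0.444% and 0.186% to 0.246%. Whether either bears on the domain differences was not tested.

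The other 5 that passed were Slc6a20a (log2 difference 1.36 ± 0.33, SE; adjusted p = 0.0239 from edgeR), Slc22a6 (1.42 ± 0.35, 0.0247), Slc22a8 (1.06 ± 0.28, 0.0325), Slc6a13 (1.21 ± 0.34, 0.0366) and Abcg2 (0.49 ± 0.14, 0.0423). Slc6a20a was at 53.7, 156 and 107 CPM in aplCoA and at 29.4, 46.3 and 40.3 CPM in pplCoA. Slc6a13 overlapped between the domains, with 16.6, 48.4 and 35.8 CPM against 10.8, 13.6 and 16.6 CPM. Slc13a3 (0.84 ± 0.28, adjusted p = 0.0639 from edgeR), Slco1a4 (1.47 ± 0.50, 0.0734) and Abcc4 (0.27 ± 0.10, 0.0968) did not pass. Slco1a4, with a UMI in 0.857% of all nuclei, met the filter of 1% of nuclei through aplCoA alone, and with no filter the same 7 were called. The calls of the 5 rested on the full set of replicates: without aplCoA replicate 2, pplCoA replicate 2 or pplCoA replicate 3 the transporters called were 2, without aplCoA replicate 3 or pplCoA replicate 1 they were 3, and without aplCoA replicate 1 they were 9. The number of all genes called moved as well, from 3046 to 1432, 1036 and 1523 in the first 3 of these fits.

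The share of meningeal nuclei moved with these differences. VLMC-like nuclei were 6.03 ± 2.75% of nuclei in aplCoA and 2.64 ± 0.298% in pplCoA (SD, n = 3), a log2 ratio of the means of 1.19, and ABC-like nuclei 3.22 ± 0.920% and 0.845 ± 0.202% (SD, n = 3), a log2 ratio of 1.93. For each class all aplCoA replicates were above all pplCoA replicates (p = 0.1 in a two-sided exact permutation test, and no smaller p is possible with 3 against 3). A dissection that takes more or less of the meninges and a domain with more or fewer of these cells cannot be told apart in these data. When VLMC-like and ABC-like nuclei were left out, 4 transporters were still seen in enough nuclei to be tested and none passed, where 15.8% of 16151 genes did. An unadjusted p under 0.05 was found for 1 of the 4, Slc6a20a, at 4.84 ± 0.81 CPM in aplCoA and 3.20 ± 0.26 CPM in pplCoA (SD, n = 3; adjusted p = 0.0508 from edgeR). It passed by DESeq2 and by the likelihood ratio test. These sums still held the mural cluster of 36 nuclei, 32 of them from aplCoA and 4 from pplCoA, with 171 UMIs of Slc6a20a. The part of these mural nuclei in the difference was not tested.

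Mean levels in free RNA were also higher in aplCoA, with no test. In barcodes under 100 UMIs, Slc6a20a was at 68.5 ± 21.0 CPM in aplCoA and 42.8 ± 8.13 CPM in pplCoA, Slc6a13 at 38.2 ± 16.3 and 23.5 ± 2.73 CPM, and Slc47a1 at 21.3 ± 2.52 and 11.7 ± 3.30 CPM (SD, n = 3). The domains overlapped for Slc6a20a and Slc6a13 but not for Slc47a1, and Abcg2 was at 26.8 ± 7.97 and 24.3 ± 2.07 CPM (SD, n = 3). The part of free RNA in the values of non-meningeal nuclei was not tested.

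**Figure D5:**
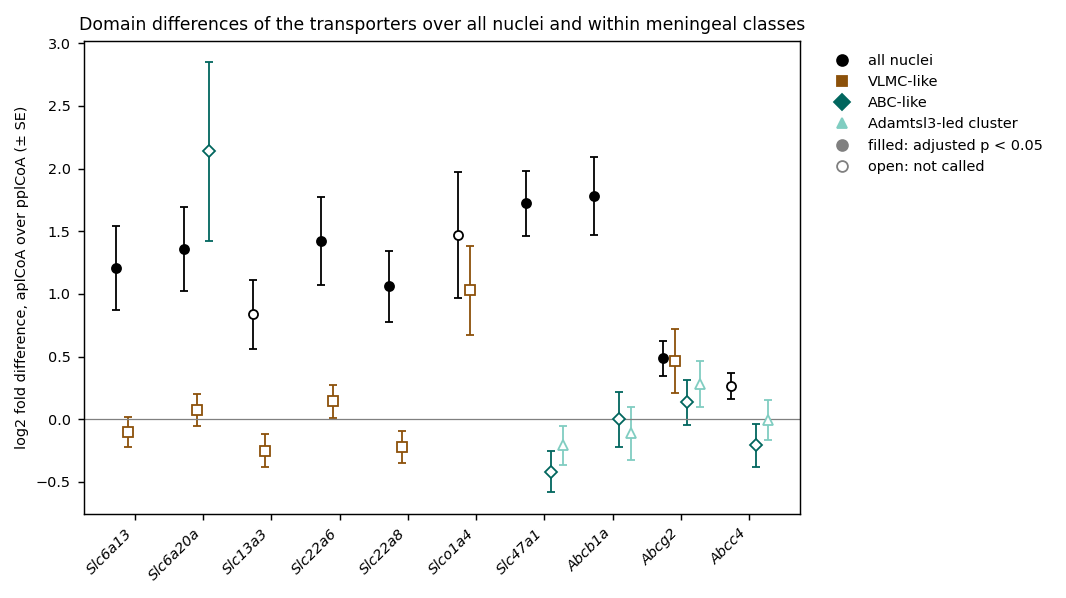
Log2 fold difference (aplCoA over pplCoA, ± SE from edgeR) of each transporter over all nuclei and, where it was seen in at least 10% of nuclei of a domain, within VLMC-like nuclei, ABC-like nuclei and the Adamtsl3-led cluster; filled symbols passed an adjusted p of 0.05. All 10 symbols for all nuclei lie above 0 and 7 are filled, and no symbol within a class is filled.

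Within VLMC-like nuclei no transporter passed: 7 were tested, with 1 at an unadjusted p under 0.05 and none by DESeq2. Of 5730 genes 1 passed (0.0175%), and 456 had an unadjusted p under 0.05. Slc6a20a was at 3414 ± 31.4 CPM in aplCoA and 3286 ± 461 CPM in pplCoA (log2 difference 0.07 ± 0.13, SE), Slc6a13 at 1118 ± 42.9 and 1212 ± 108 CPM (-0.10 ± 0.12, SE) and Slc22a6 at 190.4 ± 9.51 and 175 ± 21.7 CPM (0.14 ± 0.13, SE; all SD, n = 3). Slc13a3 and Slc22a8 had log2 differences of -0.25 ± 0.13 and -0.22 ± 0.13 (SE). Abcg2 was at 73.2 ± 16.1 and 52.9 ± 18.5 CPM (SD, n = 3), a log2 difference of 0.47 ± 0.26 (SE; adjusted p = 0.71 from edgeR).

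Slco1a4 had the widest difference in VLMC-like nuclei, 86.7 ± 42.6 against 42.7 ± 14.8 CPM (SD, n = 3), with a log2 difference of 1.03 ± 0.36 (SE) and an adjusted p of 0.518 from edgeR; the values of the domains overlapped. The replicate number was also used as a block, a choice made from correlations in these same counts, since no source states the pairing. With it the adjusted p of Slco1a4 from edgeR was 0.0131 (0.0131 to 0.895 over all alternatives), in a fit that called 121 of 5730 genes. Most of its VLMC-like UMIs lay in the Bmp6-led cluster. There it was at 84.0, 206 and 132 CPM in aplCoA and 73.6, 106 and 55.4 CPM in pplCoA. It did not pass, where 0.0% of genes did.

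Within ABC-like nuclei 5 transporters were tested and none passed, with 2 at an unadjusted p under 0.05 and none by DESeq2; none of 5916 genes passed (0.0%), and 474 had an unadjusted p under 0.05. Abcb1a was at 443 ± 90.8 and 452 ± 114 CPM, Abcg2 at 597 ± 37.5 and 558 ± 121 CPM and Abcc4 at 590.3 ± 70.2 and 697 ± 92.7 CPM in aplCoA and pplCoA (SD, n = 3). Slc47a1 was lower in all 3 aplCoA replicates, at 1615 ± 205 against 2203 ± 206 CPM (SD, n = 3), a log2 difference of -0.42 ± 0.16 (SE; adjusted p = 0.568 from edgeR). Slc6a20a was at 77.6 ± 34.1 and 18.1 ± 26.8 CPM (SD, n = 3; log2 difference 2.14 ± 0.71, SE; adjusted p = 0.466 from edgeR) and was tested because of its level in aplCoA alone. With the replicate number as a block Slc6a20a passed, in a fit that called 103 of 5916 genes, but the pairing of the pools is not known. The Fn1-led nuclei, with no UMI of Slc47a1 and 392 CPM of Slc6a20a, moved with both genes: 148 of the 158 were from aplCoA. In the Adamtsl3-led cluster on its own Slc47a1 was at 1992 ± 76.6 and 2354 ± 111 CPM (SD, n = 3), a log2 difference of -0.21 ± 0.16 (SE). It was again lower in all 3 aplCoA replicates, and Slc6a20a was not tested. There 4 transporters were tested and none passed, where 6 of 5949 genes did (0.101%), with no transporter at an unadjusted p under 0.05.

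In other classes few transporters could be tested. Glutamatergic neurons gave Abcc4 a log2 difference of -0.28 (adjusted p = 0.141 from edgeR) and Abcg2 one of -0.18, neither of which passed, where 20.8% of 9688 genes did. Abcc4 in astrocytes had a log2 difference of 0.31 (adjusted p = 0.227 from edgeR), where 0.656% of 5034 genes passed. Abcg2 in oligodendrocyte precursors (6.55% of genes passed), and Abcg2 and Abcc4 in newly formed oligodendrocytes and in microglia (0.0% in each), did not pass either.

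A list of 46 other carriers and pumps of brain barriers was read from the same fits. Over all nuclei 42 were tested, of which 13 were higher in aplCoA, 3 lower and 26 did not pass, where 9.39% of all genes were higher and 9.31% lower. The median log2 difference was 0.20, against 0.02 for all genes. Of the 13, the largest differences were those of the anion exchanger Slc26a7 (2.19 ± 0.28, SE; adjusted p = 0.00419 from edgeR), Slc47a2 (1.76 ± 0.30, 0.00786) and Slc22a2 (1.69 ± 0.41, 0.0231). Slc13a4, Slc16a9, Slc26a2, Slc38a2, Slc7a11, Slco2a1, Slc16a1, Slc5a6, Slc23a2 and Abca8b were also higher, by 0.31 to 1.25. Abcb1b (-0.42 ± 0.09, SE; adjusted p = 0.0160 from edgeR) and Slco2b1 (-0.29 ± 0.08, 0.0445) were among those lower in aplCoA. Without pplCoA replicate 2 or 3 the listed transporters that passed were 7 and 8, Slc22a2 not among them, while all genes called fell to 1036 and 1523. Without any of the other replicates they were 12 to 17. When VLMC-like and ABC-like nuclei were left out, 6 of 36 tested passed, where 15.8% of all genes did.

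Within VLMC-like nuclei 18 of the list were tested and none passed (5 at an unadjusted p under 0.05; with the block Slc4a4 and Slc38a2 passed, among 121 of 5730 genes), and within ABC-like nuclei 21 were tested and none passed (3 at an unadjusted p under 0.05). By UMIs, the first 3 of the list in VLMC-like nuclei were the cystine carrier Slc7a11 at 2629.5 CPM, Slc22a23 at 792 CPM and the sulfate carrier Slc13a4 at 668 CPM. In ABC-like nuclei they were the bicarbonate carrier Slc4a10 at 5418 CPM, the amino acid carrier Slc38a2 at 3755 CPM and the vitamin C carrier Slc23a2 at 2135 CPM. In endothelial-marked nuclei Slc6a6, a taurine carrier, was at 551 CPM, the glucose carrier Slc2a1 at 359.6 CPM and Slco1c1 at 343 CPM. Slc7a11 was also divided within the VLMC-like class, at 4293 CPM in the Bmp6-led and 839.5 CPM in the Ptgds-led cluster.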

How the data were processed

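Nuclei were profiled by single-nucleus RNA sequencing with the 10x 3' kit in 7 libraries, 4 of aplCoA and 3 of pplCoA. The authors perfused the mice, microdissected and froze the domains, pooled tissue and sorted nuclei on DRAQ7. They deposited unfiltered UMI counts per gene and barcode, made by Cell Ranger 5.0.0 on mm10 according to the submitters' processing notes, with introns included and no normalization. The counts were used as deposited, and no value of the study's own comparisons was used. Of the gene rows, 78 have a symbol that is not unique.

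Nuclei were barcodes of 1000 genes or more. Those over 5 scaled median absolute deviations above the median UMI total of a library were dropped, as were those whose share of mitochondrial or ribosomal UMIs passed the upper quartile by over 5 interquartile ranges. Scrublet scores removed doublets at the study's rate of 0.01 per 1000 nuclei, in place of the study's caller. The filters left 52201, 51538, 50560 and 46434 barcodes in turn. Pearson residuals (theta 100) of 5000 variable genes without the 10 transporters were reduced to 50 components and clustered with 15 neighbours by Leiden (resolution 1.0), and marker genes gave the cluster names. The transporters, markers and lists were chosen with earlier results of these data known.

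UMIs were summed per class and replicate and scaled by TMM. The domains were compared by edgeR's quasi-likelihood test, with Benjamini-Hochberg adjustment over all genes seen in at least 10% of a domain's nuclei of a class (1% for all nuclei) and a threshold of 0.05. Each class needed 10 nuclei in every replicate. CPM ratios used a pseudocount of 1. Intervals are exact Poisson at 95%, floors are 3 counts, and both cover counting error only. p-values measure the spread between pools. Genes named beside the transporters are near-identical relatives, listed barrier transporters called in a fit or among the first 3 by CPM in VLMC-like, ABC-like or endothelial-marked nuclei, the 3 genes most alike in pattern, and markers; not every gene that the rule names is reported here.

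Deviations from the domain means of replicates with the same number correlated at 0.32, 0.19 and 0.18 in VLMC-like nuclei, so the blocked value is given there. That choice rests on the same counts as the fit and not on a known pairing. In data simulated with genes changed by 2 on the log2 scale, 100% of 139 changed genes tested were called over all nuclei (16290 genes), 100% of 90 in VLMC-like nuclei (5730 genes) and 97.3% of 146 in ABC-like nuclei (5916 genes). The simulated spread was set beforehand and not taken from these replicates, and no smaller change was simulated. The share of smaller differences that these fits would call is therefore not known. Alternatives were the likelihood ratio test, DESeq2 1.42.0, RLE scaling, no filter, a stricter threshold, a replicate block, each replicate left out, each library of aplCoA replicate 1 alone, no doublet removal, log-normalized clustering, resolution 2.0, classes set nucleus by nucleus and other thinning depths. Fits without meningeal nuclei and of single clusters were added after seeing the data. Tools were edgeR 4.0.16 in R 4.3.3, and scanpy 1.11.5, igraph 0.11.9, scipy 1.17.1 and matplotlib 3.10.9 in Python 3.11.15. The other experiments of the study were not analysed here.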

Additional observations from a re-analysis of the deposited data

Results flagged for a closer look

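Of 17 groups of 6 replicates tested for a value far from the others, 3 had one, where chance gives about 1 in 20. Slc6a13 in VLMC-like nuclei was at 1335 CPM in pplCoA replicate 3, above the 1076 to 1165 CPM of the other 5. Abcb1a in VLMC-like nuclei was at 6.10 CPM in the same replicate, above the 1.22 to 2.89 CPM of the others. These values rest on very few counts, with 16 UMIs of Abcb1a in all VLMC-like nuclei. Slc22a8 in ABC-like nuclei was at 97.6 CPM in pplCoA replicate 2, above 16.2 to 44.0 CPM in the others; this replicate had 48 ABC-like nuclei, 8 of them Fn1-led.

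Signal was also found in nuclei that the comparisons do not use. In 53 endothelial-marked nuclei removed as doublets, Slco1a4 was at 2390.2 CPM (95% Poisson interval 2219 to 2571) and Abcb1a at 829 CPM (729 to 938), where the highest kept classes had 75.3 and 425 CPM.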

How the results depend on the processing

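The division of the transporters between ABC-like and VLMC-like nuclei (4 higher, 6 lower) was found under all 12 alternatives, except that classes set nucleus by nucleus gave 4 lower. In 6 of the alternatives a replicate was left out, which cannot undo a lack of overlap and so tests nothing here. Resolution 2.0 gave classes of the same size, 1046 and 1856 nuclei. The number of transporters called over all nuclei, 7, was 2 at the stricter threshold (Abcb1a and Slc47a1) and 2 to 9 when a replicate was left out. It was 9 with the likelihood ratio test and with the block, 8 with DESeq2 (all 3 counts include Slco1a4, tested through aplCoA alone), 7 with RLE scaling and with no filter, 6 with no doublet removal, and 5 or 7 with either library of aplCoA replicate 1 alone; log2 differences kept their direction in all of these where they had a value (9 transporters were tested without aplCoA replicate 2). Genes called over all nuclei ranged from 1036 to 3825 (627 at the stricter threshold), in VLMC-like nuclei from 0 to 121 and in ABC-like nuclei from 0 to 103. In VLMC-like nuclei the block called 1 transporter (Slco1a4) and 2 other transporters. In ABC-like nuclei the block called 1 (Slc6a20a, adjusted p = 0.00314 from edgeR, 0.00314 to 0.990 over all alternatives; tested through its level in aplCoA alone, with 259 of its 277 UMIs in Fn1-led nuclei) and 2 others (Slc13a4 and Slc16a9), and the likelihood ratio test 1 other (Slc13a4). There replicates with the same number deviated together by 0.209, 0.145 and 0.0387 (correlation), each most with its own number, as a hint from the data only, and over all nuclei by 0.101, -0.0414 and 0.105. Glutamatergic neurons had 1 transporter called with no filter. Without VLMC-like and ABC-like nuclei 1 was called by DESeq2, by the likelihood ratio test and by library 1 alone (Slc6a20a) and with no filter (Slc47a1), and 0 to 1 when a replicate was left out (Slc6a13, without aplCoA replicate 1). Some log2 differences in ABC-like nuclei, none of them called, turned sign: Abcb1a was -0.00299 with DESeq2, -0.00377 with RLE scaling and -0.19 to 0.16 with a replicate left out, Abcg2 was -0.0159 to 0.29 with a replicate left out (-0.0159 without pplCoA replicate 1), and Abcc4 was 0.16 with no doublet removal, from -0.21. The cause was not tested. Depth limits the low classes: pplCoA had 48 to 54 ABC-like nuclei a replicate, and Fn1-led nuclei could not be compared between domains.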

Other observations

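Other transporters also differed between the 2 ABC-like clusters, given here as levels over all nuclei of a cluster, with no test. In the Adamtsl3-led cluster the bicarbonate carrier Slc4a10 was at 6354 CPM, the vitamin C carrier Slc23a2 at 2486 CPM, the anion exchanger Slc26a7 at 777 CPM and Slc47a2 at 367 CPM, and in the Fn1-led cluster they were at 9.24, 108, 1.54 and 0 CPM. Slc13a4 and Slc22a23, transporters with high counts in VLMC-like nuclei, were at 152 and 102 CPM in the Fn1-led cluster and at 9.33 and 13.9 CPM in the Adamtsl3-led cluster. Slc4a4, a bicarbonate carrier, was at 865 CPM in the Fn1-led and 955 CPM in the Adamtsl3-led cluster. The endothelial receptor gene Flt1 was at 197 CPM in VLMC-like and 0.45 CPM in ABC-like nuclei.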
